A study of Mus musculus with 2 samples.

Results

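Cells that meet a DNA interstrand crosslink or a broken replication fork depend on 2 linked pathways, and 30 genes of these pathways were read here in differentiating mouse erythroid cells. In the Fanconi pathway a multi-protein core complex attaches ubiquitin to the FANCD2-FANCI pair at a stalled fork, and nucleases held by SLX4 then cut beside the lesion. In homologous recombination the broken end is resected, BRCA1, PALB2 and BRCA2 act on the single strand so that it can pair with an intact copy, and the BLM complex or nucleases take the joined molecules apart. Inherited loss of Fanconi genes leads to bone marrow failure, which is why the pathway is of interest in blood cells.

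The 30 genes were given as a list of names, by a rule that uses no measured value: 8 core complex genes, 2 genes of the FANCD2-FANCI complex, 5 BRCA mediators, 5 genes of the BCDX2 and CX3 complexes, 4 end resection genes, 2 RAD54 translocases and 4 genes of dissolution and incision. All 30 were found among 43346 Ensembl genes. The samples were 2 biological replicates of one group, G1E-ER4 cells given 17beta-estradiol at 10 nM over 24 hours, labelled as strain C57BL/6J, postnatal and male. G1E cells are an erythroid progenitor line that lacks Gata1, and G1E-ER4 is a subline in which GATA1, fused to the ligand-binding domain of the estrogen receptor, becomes active when estradiol is added. Libraries were made from 100 ng of RNA depleted of ribosomal RNA, and no untreated library is analysed here, so nothing below is an effect of estradiol or of GATA1.

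The libraries held 62080996 and 41051158 expected counts, which are reads assigned to genes by a model that shares out reads fitting several genes. All 16 erythroid markers listed were at 1 TPM or more in both libraries, with a median of 56.6 and 61.7 TPM (transcripts per 1e6 transcripts, a level corrected for transcript length). They include Gata1 (60.05 and 73.23 TPM), whose reads may come from the fusion, so that marker does not tell the cell type. Of 14 myeloid markers 1 reached that level, and of 12 lymphoid markers none did. Summed over the list, the myeloid markers came to 1.80 TPM in replicate 1 and 3.16 TPM in replicate 2, with 7 markers at 0 counts in replicate 1 and none at 0 in replicate 2. Of 10 megakaryocyte markers 4 were at 1 TPM or more in both.

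Most of the repair genes were transcribed at low levels. Of the 30, 21 were at 1 TPM or more in both libraries, which is 70.0%, against 36.3% of 21461 nuclear protein-coding genes. The count depends on the unit: it was 29 when TPM was rescaled to protein-coding genes alone (42.9% of all), 27 with FPKM (41.2%), 23 with the deposited posterior mean TPM (36.7%) and 17 with coding transcripts only (34.4%). A further 3, Fancd2, Rad51b and Brca2, reached 1 TPM in replicate 2 only, and 6 (Fancc, Rad51c, Brip1, Fancb, Xrcc3 and Rmi2) stayed under it in both. With the posterior mean, Fancc was above it, at 1.05 and 1.11 TPM. The median of the 30 was 1.33 TPM in replicate 1 and 2.58 TPM in replicate 2 (1.96 ± 0.89, SD, n = 2). Over protein-coding genes at 1 TPM or more in both libraries the median was higher, at 6.44 and 6.38 TPM. The 30 were not filtered in that way, and a like filter would narrow the gap. A low level in a bulk library does not tell fewer expressing cells from less RNA per cell. Together the 30 genes took 0.117% and 0.140% of the counts. The 6 with the highest mean levels, Slx4, Fance, Rmi1, Nbn, Blm and Rad50, made up 72.1% and 60.5% of their summed TPM.

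**Figure D1:**
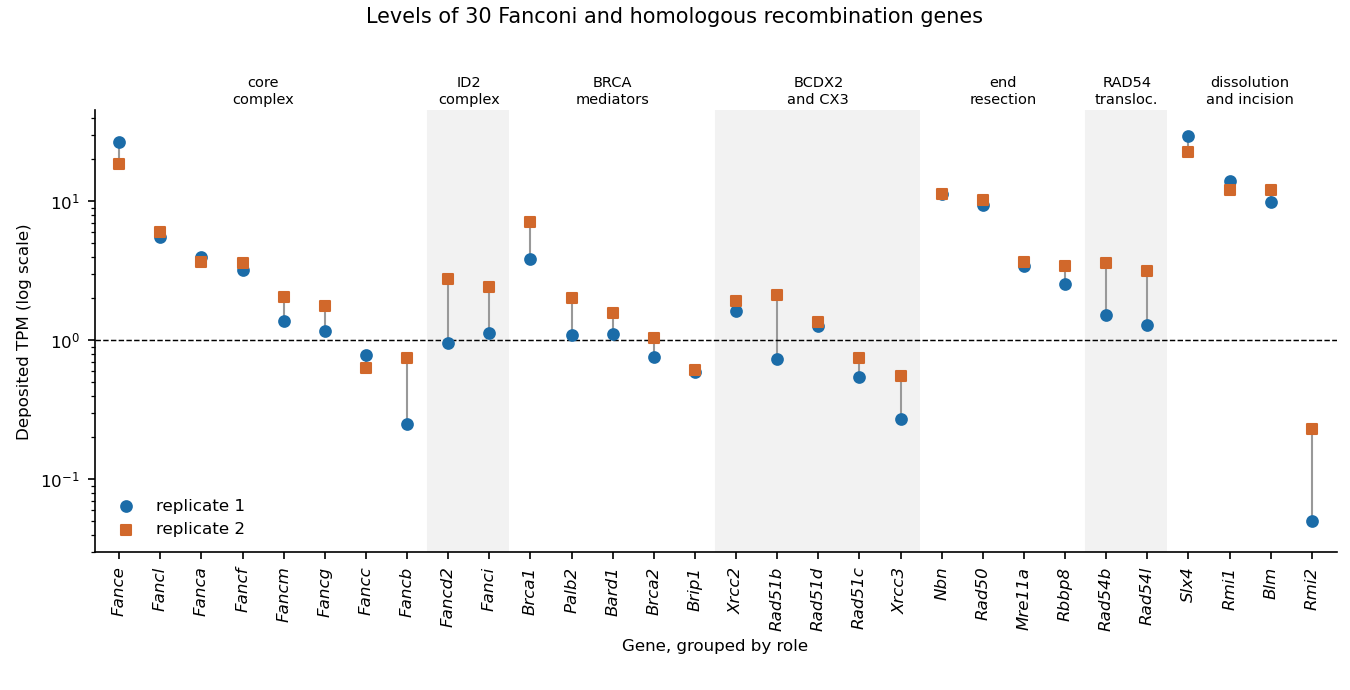
Deposited TPM of each of the 30 repair genes in replicate 1 (circles) and replicate 2 (squares) on a log axis, grouped by role, with a dashed line at 1 TPM. End resection genes all lie above the line, and Rmi2 is the lowest gene, at 0.05 and 0.23 TPM.

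When the genes were put in order of their mean level, only 10 of 29 adjacent couples were separated, meaning that the log2 ratio had the same sign in both libraries and a mean above its SD. The separated steps were Slx4 over Fance, Fance over Rmi1, Rmi1 over Nbn, Blm over Rad50, Rad50 over Fancl, Fancf over Rbbp8, Rad54b over Rad54l, Rad54l over Fancd2, Rad51d over Brca2 and Xrcc3 over Rmi2. The other neighbours in the order did not differ beyond their spread.

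Within the Fanconi core complex the levels ran from 22.4 TPM to 0.495 TPM (means of 2 libraries). Fance, which docks FANCD2 onto the complex, was at 26.5 and 18.4 TPM. Fancl (chr11:26386135-26471876, plus strand, as are all gene positions here in GRCm38), the RING ubiquitin ligase, was at 5.49 and 5.98 TPM. Fancb, its partner in the catalytic module, was at 0.25 and 0.74 TPM. Transcripts of Fancl were therefore above those of Fancb in both libraries, by 13.3-fold (log2 ratio of Fancb to Fancl -3.74 ± 1.02). The difference was 6.30-fold when reads were divided by the length of the longest coding transcript. The module of FANCC, FANCE and FANCF was as uneven: Fancc was at 0.78 and 0.63 TPM, and Fance exceeded it 31.5-fold (log2 ratio of Fancc to Fance -4.98 ± 0.15). That excess was 20.6-fold with the posterior mean and 16.5-fold per kilobase of the longest coding transcript. Fancf was at 3.20 and 3.59 TPM, under Fance by 6.51-fold, or 2.21-fold per kilobase of the longest coding transcript. In the third module Fanca, at 3.95 and 3.67 TPM, exceeded Fancg, at 1.16 and 1.77 TPM, by 2.66-fold (log2 1.41 ± 0.51). Fancm, the translocase that anchors the complex to DNA, was at 1.37 and 2.04 TPM. The E2 enzyme that works with FANCL, Ube2t, was at 1.94 and 3.80 TPM, below Fancl by 2.11-fold, but counted as reads per kilobase of the longest coding transcript that order turned (log2 ratio 0.072).

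The targets of the core complex, Fancd2 and Fanci, were at like levels to each other and differed between libraries. Fancd2 was at 0.95 TPM in replicate 1 and 2.76 TPM in replicate 2. Fanci was at 1.12 and 2.41 TPM. Their ratio changed sign between libraries (log2 -0.02 ± 0.31), so TPM gave no order of these partners. Per kilobase of the longest coding transcript Fanci was the higher, by 1.22-fold (log2 -0.29 ± 0.016).

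Among the BRCA mediators Brca1 stood highest. Brca1 (chr11:101488764-101551955, minus strand), at 3.82 and 7.14 TPM, exceeded Bard1, the other RING subunit of its heterodimer, at 1.11 and 1.57 TPM, by 3.96-fold (log2 1.98 ± 0.28). It also exceeded Brip1, a helicase that binds BRCA1, at 0.59 and 0.61 TPM, by 8.71-fold (3.12 ± 0.60). Palb2, which bridges BRCA1 and BRCA2, was at 1.09 and 2.03 TPM. Brca2, which acts on the resected strand, was at 0.76 and 1.03 TPM, under Palb2 by 1.68-fold. Per kilobase of the longest coding transcript that difference was lost (log2 -0.048 ± 0.18).

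Genes of BCDX2, the complex of RAD51B, RAD51C, RAD51D and XRCC2, and of CX3, the complex of RAD51C and XRCC3, all had means under 2 TPM. Xrcc2 was at 1.63 and 1.91 TPM and Rad51d at 1.27 and 1.36 TPM. Rad51b was at 0.73 and 2.11 TPM. RAD51C, the subunit common to both complexes, came from one of the lowest of these genes, at 0.54 and 0.74 TPM. Rad51c was 2.08-fold under Rad51d (log2 -1.06 ± 0.25) and 1.64-fold above Xrcc3, which was at 0.27 and 0.55 TPM. The step to Xrcc3 was no longer separated with the posterior mean (log2 0.22 ± 0.32) or per kilobase of the longest coding transcript (0.26 ± 0.47). The deposited lower and upper bounds of Xrcc3 were 0.30 to 0.60 TPM and 0.58 to 1.03 TPM, so its deposited level lay just under its own bounds in each library.

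End resection genes were all above 1 TPM. Nbn was close in the 2 libraries, and Rbbp8 was the furthest apart, by 1.39-fold in favour of replicate 2 on scaled counts. Nbn (chr4:15957925-15992589, plus strand), which recruits the ATM kinase, was at 11.4 and 11.3 TPM. Rad50, the coiled-coil ATPase, was at 9.32 and 10.2 TPM. Mre11a, the nuclease of the same complex, was at 3.42 and 3.63 TPM. Nuclease transcripts were thus 2.76-fold under those of Rad50 (log2 -1.47 ± 0.03) and 3.21-fold under those of Nbn (-1.68 ± 0.07), or 4.74-fold and 5.46-fold per kilobase of the longest coding transcript. Rbbp8, which encodes the nuclease cofactor CtIP, was at 2.53 and 3.43 TPM, 3.84-fold under Nbn.

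The RAD54 translocases, which act when a strand invades the template duplex, were close to each other. Rad54l was at 1.28 and 3.14 TPM and Rad54b at 1.53 and 3.59 TPM. The difference was small (log2 -0.23 ± 0.05, 1.17-fold in favour of Rad54b), and per kilobase of the longest coding transcript it turned to 0.74 in favour of Rad54l.

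Dissolution and incision genes held both ends of the range. Slx4 (chr16:3979105-4003770, minus strand), the nuclease scaffold, was at 29.5 and 22.5 TPM. Its partner Slx1b, a nuclease subunit, was at 0.82 and 0.76 TPM, 32.7-fold lower (log2 5.03 ± 0.20), or 12.8-fold per kilobase of the longest coding transcript. Blm, the helicase of the dissolving complex, was at 9.92 and 12.1 TPM, and Rmi1, which stabilises that complex, at 14.1 and 12.1 TPM. These levels were not separated (log2 -0.25 ± 0.35). Blm was 5.25-fold above Top3a, the topoisomerase of the complex (2.39 ± 0.36). Rmi2, the fourth subunit, had 35 and 117 counts and 0.05 and 0.23 TPM, and Rmi1 exceeded it 124-fold (log2 6.95 ± 1.74). Rmi1 and Rad54b were the only genes of the 30 whose counts included reads shared with other genes.

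Of 23 partner couples examined, 21 had a ratio of the same sign in both libraries with a mean above its SD (18 per kilobase of the longest coding transcript). Among all 435 couples of the 30 genes 86.0% met that rule, so the count says little about partners as such. With 2 libraries an exact two-sided sign-flip test cannot go below p = 0.5, and no test was made.

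**Figure D2:**
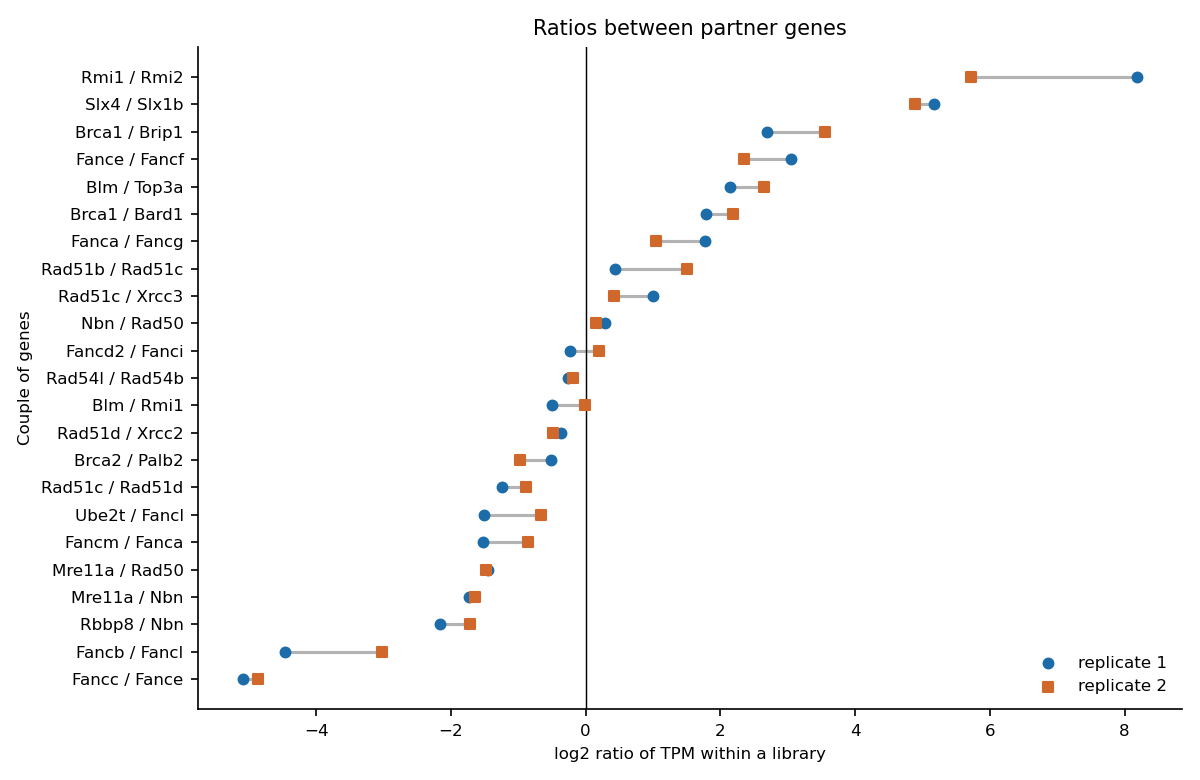
log2 ratio of TPM between partner genes within replicate 1 (circles) and replicate 2 (squares), ordered by the mean, with the grey bar joining the libraries. Slx4 over Slx1b is among the highest ratios, and those of Fancd2 to Fanci and of Blm to Rmi1 are not separated from 0.

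The replicates differed over these genes. The log2 ratio of replicate 2 to replicate 1 was taken on library-scaled counts with TMM factors (which remove differences in library composition), where the count averaged 100 or more. Of 29 repair genes that passed that filter, 24 had a ratio above 0 and 5 below. Over all 9777 genes, 4709 (48.2%) were above 0. The median was 0.45 (1.37-fold) for the repair genes, against -0.01 over all genes. Of the 29, 10 (34.5%) were past 1.5-fold in favour of replicate 2, against 5.0% of all genes. In favour of replicate 1 there were 0 of 29, against 2.86% of all genes. At 2-fold, 7 passed in favour of replicate 2, against 1.56% of all genes, and 0 in favour of replicate 1, against 0.481%. Each side is 1 library of the same group, so the difference describes the spread between these libraries and has no test.

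The 10 genes were spread unevenly over the roles. Both FANCD2-FANCI genes passed, with Fancd2 at 869 and 1330 counts (2.26-fold after scaling) and Fanci at 898 and 1353 counts (2.23-fold). Both RAD54 translocases passed, Rad54l by 2.44-fold and Rad54b by 2.05-fold. The core complex gave Fancb (129 and 288 counts, 3.29-fold, the largest ratio of the 29) and Fancm (1.52-fold). The mediators gave Brca1 (4722 and 5800 counts, 1.82-fold) and Palb2 (1.66-fold). The BCDX2 and CX3 genes gave Rad51b (94 and 184 counts, 2.89-fold) and Xrcc3 (2.16-fold). Rad51b was under 100 counts in replicate 1 and passed the count filter only through replicate 2, where it is high. None of the 4 end resection genes passed, and none of the 3 tested dissolution and incision genes. Nbn had a ratio of 1.01, with 5428 and 3717 counts. Bard1 lay just under the threshold at 1.45-fold. The genes with ratios below 0 were Fance (-0.43), Slx4 (-0.39), Rmi1 (-0.18), Fanca (-0.16) and Rad51d (-0.07).

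Genes of the dividing cell moved in the same direction. Of 24 S phase genes 21 were past 1.5-fold in favour of replicate 2, with a median log2 ratio of 0.97 and a summed level of 180 TPM in replicate 1 and 325 TPM in replicate 2. Of 24 genes of G2 and mitosis 21 were past it too, with a median of 0.88 and a summed level of 296 and 495 TPM. Of 16 erythroid genes 2 were past it, with a median of 0.19. The part of the dividing cell lists, of the myeloid markers or of depth in the difference between replicates was not tested.

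**Figure D3:**
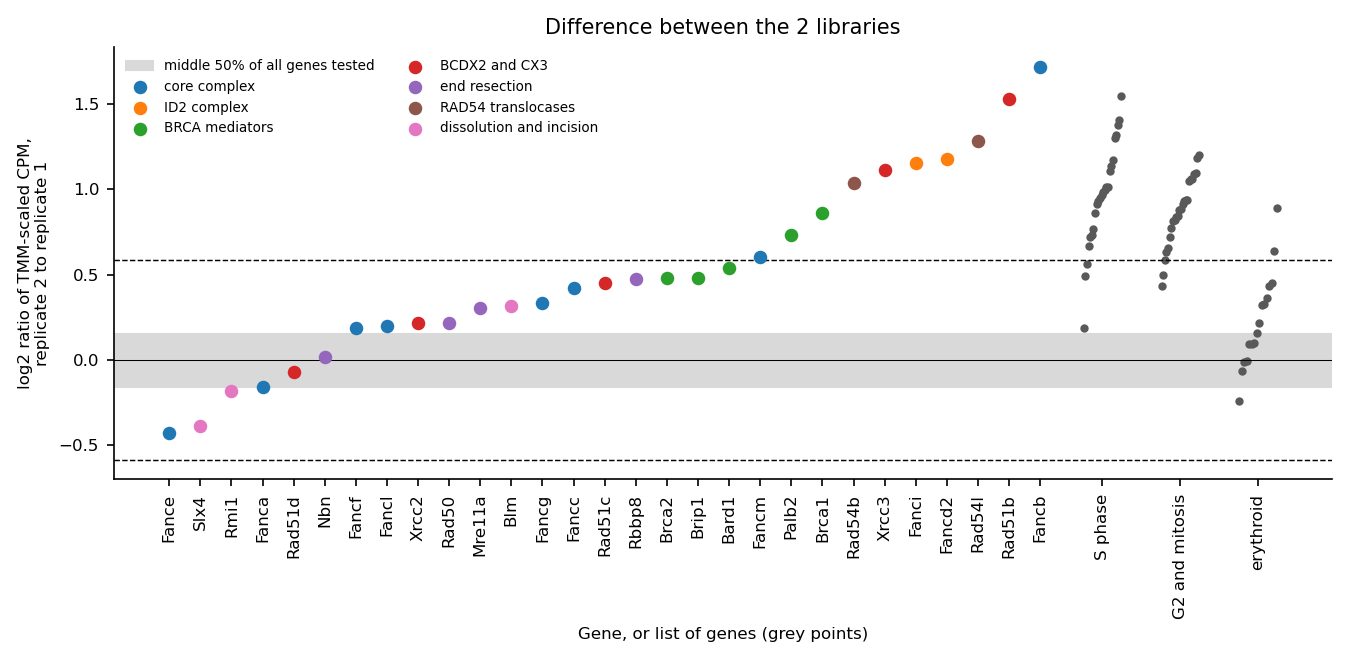
log2 ratio of replicate 2 to replicate 1 for the 29 repair genes with an average count of 100 or more, ordered by value and coloured by role, beside the S phase, G2 and mitosis and erythroid lists (grey points). The grey band holds the middle 50% of all 9777 genes and the dashed lines mark 1.5-fold; Fancb is highest at 1.72, and the S phase and mitosis points lie mostly above the upper line.

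For Fancc the counts and the TPM went different ways. Its scaled count ratio was 0.42 in favour of replicate 2 (226 and 205 counts), while its TPM was higher in replicate 1. Its posterior mean TPM, 1.05 and 1.11, followed the counts. In replicate 1 a transcript of 350 nucleotides, Fancc-210, carried 48.4% of the TPM of the gene on 11.6 counts, and in replicate 2 it had 0%. The deposited bounds were 0.78 to 1.34 TPM in replicate 1 and 0.79 to 1.45 TPM in replicate 2, above the deposited 0.63 TPM of that library.

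Other genes of the same pathways were taken from lists chosen by function. Of 18 other Fanconi pathway genes 15 were at 1 TPM or more in both libraries. The highest were Rev1, a translesion polymerase, with a mean of 14.0 ± 1.36 TPM (SD, n = 2), Rfwd3, a ubiquitin ligase of the pathway, at 9.81 and 10.9 TPM, and the nuclease subunit Mus81 at 8.32 and 8.04 TPM. Cenps (0.19 and 0.30 TPM) and Faap100 (0.20 and 0.35 TPM), the third member of the module of FANCB and FANCL, were the lowest. Of 16 tested, 2 were past 1.5-fold in favour of replicate 2 and the median log2 ratio was 0.0032. The 2 were Eme1 (1.48), the partner of MUS81, and Ube2t (1.06).

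Of 27 other homologous recombination genes 23 were at 1 TPM or more in both. Rpa1 (26.6 and 37.2 TPM) and Rpa3 (17.7 and 22.5 TPM), subunits of the single-strand binding protein RPA, and Sem1 (21.8 and 17.2 TPM), a small BRCA2-binding protein, were the highest. Mcmdc2 was at 0.03 and 0.02 TPM. Of 26 tested, 8 were past 1.5-fold in favour of replicate 2, with a median of 0.31. Among 20 damage signalling genes 18 were at 1 TPM or more and 5 were past it, with H2afx, which encodes histone H2A.X, the highest at 15.7 and 42.8 TPM. Of 15 end joining genes 14 were at 1 TPM or more and 3 were past it. The highest end joining gene was Xrcc6, a subunit of the Ku end-binding dimer, at 9.63 and 12.7 TPM.

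Meiotic recombination genes were mostly near 0. Of 19 measured, 3 were at 1 TPM or more in both libraries and 7 had 0 counts in both, Dmc1, Hormad1 and Sycp2 among them. The exceptions were Rec8, a meiotic cohesin subunit, at 29.5 and 20.0 TPM, Psmc3ip, a cofactor of strand invasion, at 4.05 and 4.62 TPM, and Msh5 at 1.67 and 2.00 TPM. A count of 0 allows up to 3 counts in a library by counting error.

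The transcript tables showed which forms the levels rest on. In 11 of the 30 the transcript with the largest share of TPM was not the longest coding one, and in 13 the longest coding transcript held 80% or more. The 5 genes with 1 listed transcript could only fall among the 13. Like counts were not taken over all genes, so these do not tell a trait of the repair genes. For Slx4, a coding transcript of 715 nucleotides, Slx4-208, held 33.0 ± 0.18% of the TPM (SD, n = 2) and another of 865 nucleotides held 30.5 ± 0.79%. The longest, Slx4-201 of 5706 nucleotides, held 11.2 ± 0.36%. For Fance a processed transcript of 536 nucleotides, Fance-214, led with 31.3 ± 2.61%, while Fance-203, the longest coding one, held 9.98 ± 0.93%. When reads were divided instead by the length of the longest coding transcript, the order became Rmi1, Nbn, Blm and Rad50, with Slx4 at rank 5 and Fance at rank 6.

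Several genes carried much of their TPM on transcripts not annotated as protein-coding. Those annotated as retained intron, processed transcript or nonsense-mediated decay are grouped here under the name non-coding. Rad51c was the extreme: its decay transcript Rad51c-204 held 69.7 ± 3.50%, and the coding Rad51c-202 held 29.4 ± 2.26%. Palb2 had 59.0 ± 3.60% on non-coding transcripts, Fance 55.2 ± 0.24%, Rad51d 46.2 ± 15.3% and Fancg 41.9 ± 14.6%. Which genes stand out depends on the unit. As a share of counts Fancg had 8.25 and 21.2%, while Slx4 had 41.9 and 39.6%, against 19.7 and 19.6% of TPM. With the posterior mean Xrcc3 had 57.9 and 53.5%, against 14.8 and 14.5% of TPM. Rad51c had 52.1 and 56.2% of counts. The spread between libraries was wide for the low genes. Palb2-203, a coding transcript, held 32.3% in replicate 1 and 5.29% in replicate 2. The coding Fancd2-201 held 77.9 and 59.4% of its gene, with retained introns making up most of the rest. Over the 14 repair genes at 1 TPM or more with such transcripts annotated, the median share was 16.0 and 18.9% (17.5 ± 2.07), close to the 17.2 and 16.5% of 4771 genes of the same kind. As a share of counts it was 10.2%, against 7.45% of those genes, and over the 4 repair genes at 5 TPM or more 11.8%, against 15.7%.

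**Figure D4:**
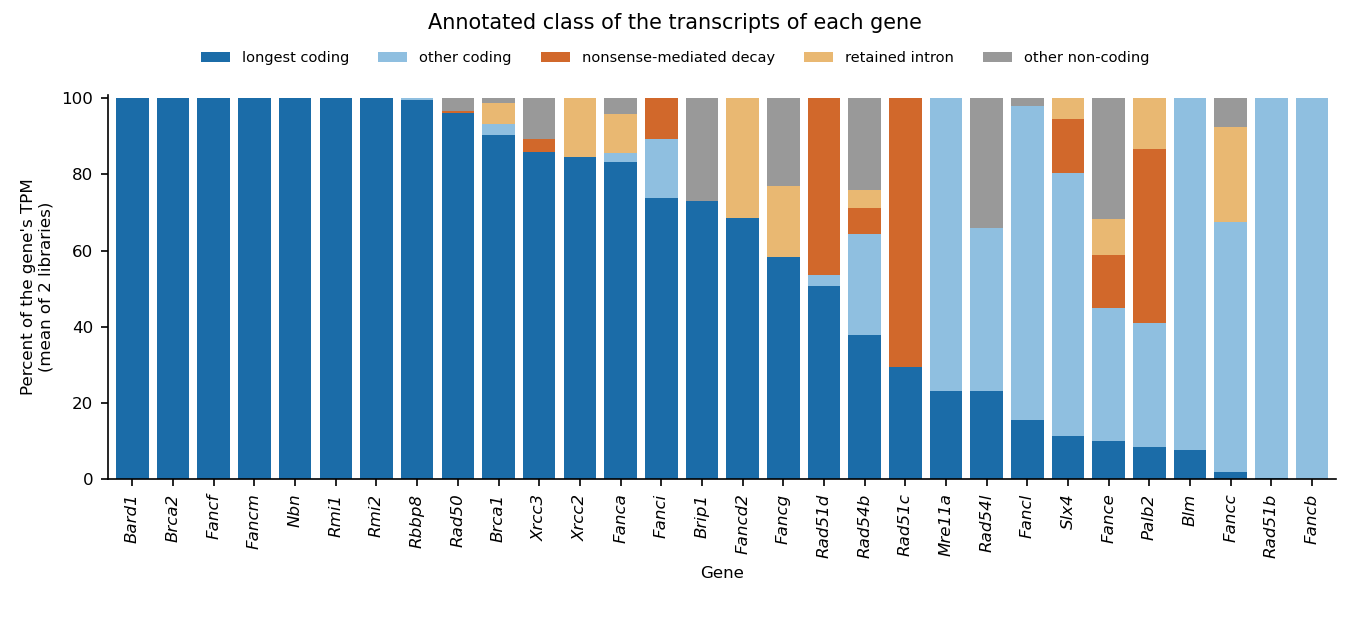
Percent of the TPM of each gene on its longest coding transcript, other coding transcripts and 3 non-coding classes, as the mean of 2 libraries. Genes on the left rest on the longest coding transcript; Rad51c is mostly on a nonsense-mediated decay transcript, and Rad51b and Fancb on shorter coding transcripts.

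Other genes rested on a single form. For 5 genes, Brca2, Bard1 and Fancm among them, the tables list 1 transcript, which fixes its share. Nbn, with 2 transcripts, had 100% on Nbn-201 in both libraries, and Brca1-201 held 92.3 and 88.3%. For Rad51b a coding transcript of 829 nucleotides, Rad51b-202, held 100 and 99.5%, while the longest, Rad51b-201, was assigned 0 and 2.24 counts. Blm was split between 2 coding forms with 92.6 and 92.5% on Blm-201. These shares come from short reads divided by a model, and the shares of low genes rest on few counts.

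Of the 30 genes 12 start within 1000 bases of another gene on the opposite strand, a head-to-head layout. That is 40.0%, against 31.9% of protein-coding genes at 1 TPM or more and 18.6% of all protein-coding genes. The partner was measured for 11 of the 12. In 8 of these the partner was above the repair gene in both libraries, and in 2, Gas2 beside Fancf and Tex14 beside Rad51c, it was below in both. No like share was taken over other head-to-head couples, and most repair genes are low, so these counts say little about the layout. Nbr1, an autophagy receptor that starts 194 bases from Brca1, was at 39.1 and 35.6 TPM, 7.14-fold above Brca1. Dctn5, a dynactin subunit 56 bases from Palb2, was at 22.5 and 22.7 TPM, 15.2-fold above Palb2. Mospd2, 217 bases from Fancb, was at 8.94 and 11.6 TPM, 23.7-fold above Fancb. Tex14, a germ cell gene 111 bases from Rad51c, had 10 and 25 counts.

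Of 10 partners with an average count of 100 or more, 0 were past 1.5-fold in either direction, which is near the share of all genes (5.0% in favour of replicate 2 and 2.86% in favour of replicate 1). In 7 of the couples with a measured partner the repair gene was past 1.5-fold. These 7 were picked by the ratio of the repair gene, so a partner nearer to 1 is largely given by that choice. Where Brca1 had a ratio of 1.82, Nbr1 had 0.93. Beside Palb2 (1.66) Dctn5 had 1.03, and beside Fancb (3.29) Mospd2 had 1.10. Beside Rad54l (2.44) Pomgnt1, a glycosyltransferase gene 150 bases away, had 0.80, so its level of 4.55 TPM in replicate 1 was above that of Rad54l and its 2.70 TPM in replicate 2 was below. Beside Fancd2 (2.26) Emc3, 30 bases away, had 0.87. Beside Rad51b (2.89) Zfyve26 had 0.91, and beside Xrcc3 (2.16) Zfyve21 had 1.22. In tested couples not picked in that way, Brip1os had 1.44 beside Brip1 (1.39), and Gas2 had 1.38 beside Fancf (1.14). Ankrd49 had 1.04 beside Mre11a (1.24).

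**Figure D5:**
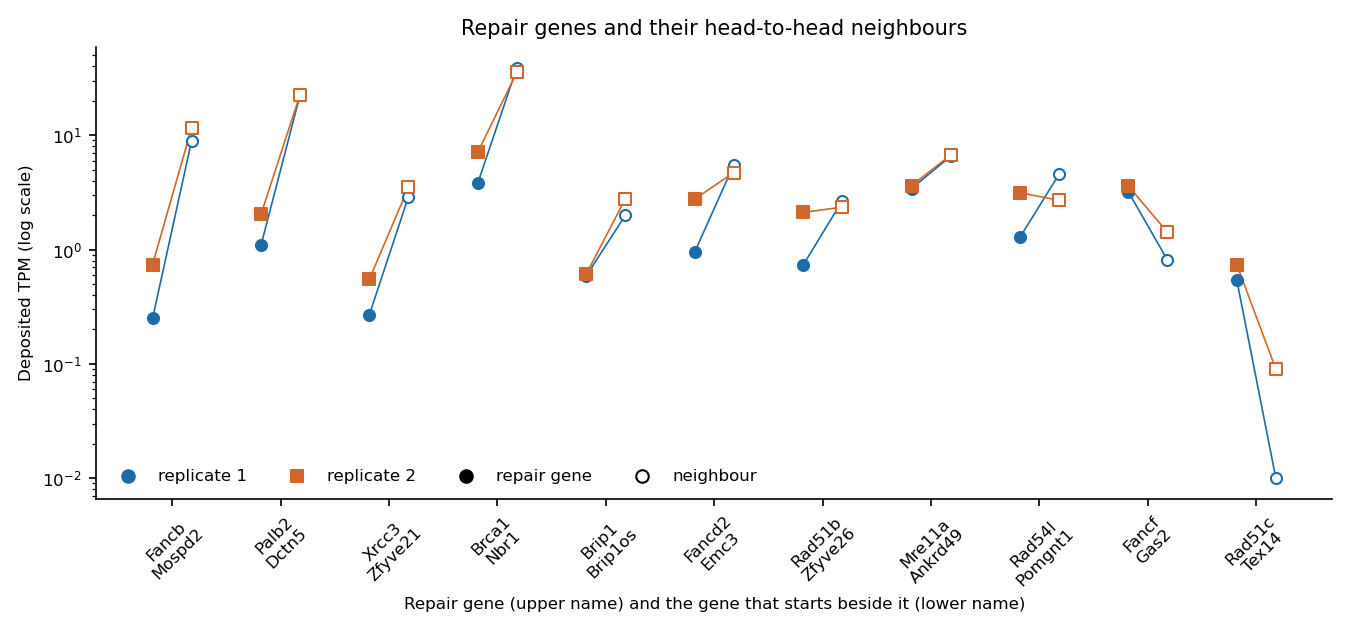
Deposited TPM (log axis) of 11 repair genes (filled) and their measured head-to-head neighbours (open) in replicate 1 (blue circles) and replicate 2 (orange squares), ordered by the ratio. Neighbours of Fancb, Palb2 and Brca1 lie far above the repair gene in both libraries, and Rad54l and Pomgnt1 cross.

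The DNA between the starts is shown for the 4 of these 7 couples, those of Fancb, Brca1, Palb2 and Rad54l, whose gap lies within a RefSeq window. Each short stretch lies upstream of a repair gene past 1.5-fold between replicates and of a partner within it. That contrast comes largely from how the couples were picked. Sequences are from RefSeq windows of GRCm38.p6, written 5′ to 3′ on the strand of the repair gene, from the base after the start of the partner to the base before the start of the repair gene. Capitals mark CCAAT and the GC box (GGGCGG), read on either strand. The stretches are chrX:164980376-164980591 (plus strand) for Fancb, chr11:101551956-101552148 (minus strand) for Brca1, chr7:122132986-122133040 (minus strand) for Palb2 and chr4:116123691-116123839 (minus strand) for Rad54l.
Fancb and Mospd2: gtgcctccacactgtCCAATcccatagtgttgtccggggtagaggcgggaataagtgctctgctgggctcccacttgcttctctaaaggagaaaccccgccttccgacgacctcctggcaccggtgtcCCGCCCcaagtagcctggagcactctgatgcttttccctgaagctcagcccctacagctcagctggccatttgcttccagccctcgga
Brca1 and Nbr1: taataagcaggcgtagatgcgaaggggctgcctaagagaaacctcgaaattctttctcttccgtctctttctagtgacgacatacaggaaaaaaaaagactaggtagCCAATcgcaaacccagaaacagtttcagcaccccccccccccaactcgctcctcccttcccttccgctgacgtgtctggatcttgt
Palb2 and Dctn5: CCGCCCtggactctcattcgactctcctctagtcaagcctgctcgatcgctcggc
Rad54l and Pomgnt1: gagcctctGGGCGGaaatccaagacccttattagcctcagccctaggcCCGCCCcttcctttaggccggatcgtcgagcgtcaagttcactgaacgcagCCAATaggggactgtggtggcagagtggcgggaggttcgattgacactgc
CCAAT stands in the stretches of Fancb, Brca1 and Rad54l, and a GC box in those of Fancb, Palb2 and Rad54l. These are matches of letters and not measured binding sites.

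Windows of 300 bases, from 250 before to 50 after a start, were at hand for 22 of the 30 genes (26 windows). CCAAT was in 19 of 26 windows (73.1%), against 37.4% of 32851 mouse windows and 39.4% of 7953 windows of protein-coding genes at 1 TPM or more. The GC box was in 65.4%, near the 65.5% of expressed genes. E2F words (TTTCCCGC, TTTCGCGC, TTTGCCGC or TTTGGCGC) were in 6 windows (23.1%), against 4.58% of expressed genes. Those 6 belonged to Bard1, Brca2, Fancg, Rad51c and Rmi1. The genes past 1.5-fold in favour of replicate 2 had 10 windows, which belonged to 8 genes. CCAAT was in the windows of 7 of the 8, beside 16 of all 22 genes and 2807 of 6280 expressed genes. An E2F word was in those of 0 of the 8, beside 5 of 22 and 345 of 6280. For E2F words 0 of 8 is near the share of expressed genes. The CHR element (TTTGAA) was in 2 windows (7.69%, against 12.2%), GATA words (AGATAA and its variant TGATAA, besides AGATAG and its variant TGATAG) in 2 (7.69%, against 18.2%) and TATAAA in 2 (7.69%, against 6.06%). The GATA words lay in the windows of Fancc and Slx4. All motifs were searched on both strands, CCAAT and the GC box can overlap, and windows of one gene can overlap too.

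Overlapping genes limit some of these values. Exons of 11 of the 30 share bases with exons of another coding gene, and whether the counting used strand is not given in the sources used here. Fanci shares 921 bases with Polg, a gene at 66.2 and 54.6 TPM. Rmi1 shares 330 bases with Hnrnpk, at 379 and 349 TPM. Rad54l shares 1184 bases with Lrrc41, at 11.7 and 12.1 TPM, and Rad54b shares 2068 bases with Fsbp on the same strand. Polg, Hnrnpk and Lrrc41 had ratios between replicates of 0.87, 1.03 and 0.99. The counts of Fanci (898 and 1353) and of Rad54l (845 and 1392) were whole numbers with a deposited SD of 0. They therefore held no reads shared out with Polg or Lrrc41. Only the counts of Rmi1 and Rad54b included reads shared with other genes.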

How the data were processed

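Total RNA-seq tables of 2 libraries of 1 group were used. Expected counts, TPM and FPKM per gene and per transcript, the percent of the TPM of a gene on each transcript, and signal columns (lower and upper bounds of TPM and the SD of the count) are as deposited, per the file headers. The build mm10 and annotation release M4 are stated in the deposited text lists; the program, aligner and strand setting are not given in the sources used here. Gene identifiers were joined without version to GENCODE M21 (42462 of 43346 matched, 99.9% of counts in each library). Rows without an Ensembl identifier (26345) held 18 and 5 counts and were left out.

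Counts were rounded to whole numbers to compute scaling factors, while ratios and counting intervals used them unrounded. Replicate ratios used edgeR 4.0.16 in R 4.3.3 (TMM factors 0.99 and 1.01, prior count 0.5, an average count of 100 or more, 1.5-fold) and were tested on simulated data; they carry no p-value. TPM under 0.1 was recomputed from counts and effective lengths. Other steps used Python 3.11. The members were proposed, and the lists chosen, with earlier results of these data known, although the rule for the members uses no measured value. Genes were named from the 30 genes, their partners and neighbours, and the 3 highest and up to 3 lowest (under 1 TPM) of each list; of the lists and neighbours only some are printed. Hormad1 and Sycp2 are examples of a tie at 0, and Eme1 was chosen after its values were seen. Other scalings, filters, units and windows were tried. A gene of the lists and its 2 couples are not reported here.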

Additional observations from a re-analysis of the deposited data

How the results depend on the processing

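No paired analysis was possible because the series has 1 group. With a threshold of 5 TPM, 7 genes passed in both libraries (20.3% of all protein-coding genes did); with a single library, 21 to 24 were at 1 TPM or more, the median level was 1.33 to 2.58 TPM and the non-coding share 16.0 to 18.9%. Rescaled over nuclear protein-coding genes, the median level was 13.7 TPM. With a mean count of at least 1000, 5 of 17 genes were past 1.5-fold in favour of replicate 2, against 3.65% of 6390 genes. Of the 5, Rad54l, Fancd2 and Fanci were under 1000 counts in replicate 1. They reached that mean only through replicate 2, where they are high. With other scalings 10 or 11 genes were past 1.5-fold. The non-coding share was 10.2% of counts, and 11.8% over the 4 genes at 5 TPM or more, against 7.45 and 15.7% over all such genes. In the 250 bases before the start alone, E2F words were in 3 of 26 windows (11.5%, against 3.80% of expressed genes), and CHR, GATA words and TATAAA in 1 each (3.85%, against 10.7, 16.6 and 5.55%). On counts not divided by length, which favour long transcripts, 4 log2 ratios reversed: Brca2 to Palb2 1.47, Nbn to Rad50 -0.82, Rad51b to Rad51c -0.98 and Rad54l to Rad54b 0.82. Per kilobase of the longest coding transcript, an alternative chosen after seeing the data, 2 reversed: Rad54l to Rad54b 0.74 and Ube2t to Fancl 0.072. There 18 of 23 couples were separated: Brca2 to Palb2 (-0.048), Rad51b to Rad51c (0.19), Rad51c to Xrcc3 (0.26) and the reversed Ube2t to Fancl fell within their SD, and Fancd2 to Fanci (-0.29) no longer did. The cause was not tested. Leaving out a library turned Fancd2 to Fanci (-0.24 in replicate 1, 0.20 in replicate 2) and no other couple. The count of separated couples, which needs an SD, and the ratio between replicates cannot be had from 1 library. Depth limits Rmi2 (35 and 117 counts), Xrcc3 (110 and 161 counts) and Rad51b (94 and 184 counts) most.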
